A study of Mus musculus with 18 samples.

Results

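The 35 genes described here cover glucose breakdown and the response to low oxygen. There were 4 carriers of glucose or lactate, 17 enzymes from hexokinase to lactate dehydrogenase, 4 regulators of glycolytic flux or glycogen, and a group of 10 made of Hif1a and targets of hypoxia-inducible factor (HIF). They were taken by symbol from a given list that uses no measured value but was drawn up with earlier results of these data known, and all 35 were present in both count tables, out of 24455 symbols for 168FARN and 24532 for LLC1. RNA had been sequenced from GFP-tagged mouse cancer cells sorted by flow cytometry from spheroids that were started in hanging drops and kept for a week. 168FARN is a breast cancer line and LLC1 a Lewis lung carcinoma line. Each line was grown alone, without fibroblasts, or with 3 fibroblasts per cancer cell, and the fibroblasts were either WT, carrying the control guide sgNS, or sgPrrx1, in which CRISPR/Cas9 had deleted the transcription factor gene Prrx1. 168FARN was mixed with MMTV-CAF, cancer-associated fibroblasts from MMTV-PyMT breast tumour mice, and LLC1 with fibroblasts taken from mouse dorsal wounds at day 10, so the cancer line, the fibroblast type and the count table cannot be told apart. The cancer cells carried no Prrx1 edit, and the deletion can therefore not be checked in these libraries. The sort was on GFP, and the study also calls the fibroblasts GFP-expressing. Age and sex of the donors of each fibroblast line, and whether it was 1 clone, were not given in the sources used here. The comparisons ask how fibroblasts change these genes in the cancer cells, and whether that differs when the fibroblasts lack Prrx1.

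Glycolysis splits glucose to pyruvate in a fixed chain of enzymes, and lactate dehydrogenase with the monocarboxylate carriers disposes of the pyruvate as lactate when it does not enter mitochondria. HIF is a transcription factor whose alpha subunit is marked for destruction by oxygen-dependent prolyl hydroxylases, so that its targets, among them many glycolytic genes, are transcribed when oxygen is short. Tumour cells in spheroids are known for both, because the centre of a spheroid receives little oxygen and because many cancers ferment glucose even when oxygen is present.

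Total counts were 48315037 to 68933002 in the 9 168FARN libraries and 66129117 to 103997557 in the 9 LLC1 libraries, with 3 libraries in each of the 6 groups. One library stood apart: LLC1 with sgPrrx1 fibroblasts, replicate 3, lay at 95.4 on the first principal component of LLC1, where the other 8 lay between -25.6 and -1.02. Results in LLC1 are therefore given with and without it. Epithelial markers were partly absent. The summed level of 12 of them was 329 to 352 CPM (read counts scaled to library size with TMM factors) in 168FARN alone, nearly all of it Krt8, and at most 0.969 CPM in any LLC1 library, with Epcam and Cdh1 at or near 0 in both lines. Fibroblast markers were also measured in cells grown without fibroblasts, and their sums differed between groups. The summed level of 16 fibroblast markers was 170.5 to 175 CPM in 168FARN alone, 1041 to 1128 CPM with WT and 286 to 295 CPM with sgPrrx1 fibroblasts, Tcf21 being at 0 in every library. In LLC1 the same sum was 1675 to 1766 CPM alone, 1215 to 1245 CPM with WT and 1508 to 1618 CPM with sgPrrx1 fibroblasts, most of it Col3a1. Whether RNA of fibroblasts had a part in the values of the 35 genes was not tested, and in such pooled RNA fewer cells of a type and less RNA per cell cannot be told apart.

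The core that HIF binds is ACGTG or GCGTG. It was searched on both strands in windows of 300 bases, from 250 before to 50 after each start listed in RefSeq (GRCm38.p6). A gene can have several listed starts, and the windows of Slc16a3 and Ankrd37 lie inside the gene. Of the 35 genes, 33 had such a window, Slc2a3 and Ndrg1 having no entry, and 30 of the 33 held a core in at least 1 window, 90.9%, beside 46.7% of 27025 genes. The more restricted ACGTG was held by 23 of the 33 and by 21.8% of all genes. Per window, 19.6% of 32851 windows held ACGTG and 32.4% held GCGTG. Several of the genes are textbook HIF targets and were listed for that, so the share describes the list. Shown are 5 windows, chosen because they belong to the carrier with the largest change of its group (Slc16a3) and to HIF targets that differed in 168FARN between WT and sgPrrx1 fibroblasts (Car9, P4ha2) or did not pass the test there (Adm, Ankrd37); capitals mark the core on either strand, including overlapping matches, and each sequence reads 5′ to 3′ on the strand of the gene.
Slc16a3, chr11:120948817-120949116, plus strand: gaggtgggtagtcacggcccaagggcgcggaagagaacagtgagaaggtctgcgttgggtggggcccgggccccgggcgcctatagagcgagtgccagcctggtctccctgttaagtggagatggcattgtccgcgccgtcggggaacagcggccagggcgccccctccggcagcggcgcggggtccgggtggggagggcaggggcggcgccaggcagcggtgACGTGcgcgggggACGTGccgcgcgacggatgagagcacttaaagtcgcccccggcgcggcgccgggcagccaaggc
Car9, chr4:43506776-43507075, plus strand: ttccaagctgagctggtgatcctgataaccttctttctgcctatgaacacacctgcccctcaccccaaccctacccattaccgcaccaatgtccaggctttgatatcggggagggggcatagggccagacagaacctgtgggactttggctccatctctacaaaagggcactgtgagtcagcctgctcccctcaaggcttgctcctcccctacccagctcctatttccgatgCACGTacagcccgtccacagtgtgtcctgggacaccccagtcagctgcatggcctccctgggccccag
P4ha2, chr11:54100674-54100973, plus strand: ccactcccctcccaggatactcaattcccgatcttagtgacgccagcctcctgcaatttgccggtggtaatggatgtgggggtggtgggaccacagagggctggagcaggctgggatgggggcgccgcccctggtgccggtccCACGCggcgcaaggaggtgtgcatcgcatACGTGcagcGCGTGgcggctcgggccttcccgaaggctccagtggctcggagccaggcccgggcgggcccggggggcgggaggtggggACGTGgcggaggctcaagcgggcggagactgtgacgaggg
Adm, chr7:110627407-110627706, plus strand: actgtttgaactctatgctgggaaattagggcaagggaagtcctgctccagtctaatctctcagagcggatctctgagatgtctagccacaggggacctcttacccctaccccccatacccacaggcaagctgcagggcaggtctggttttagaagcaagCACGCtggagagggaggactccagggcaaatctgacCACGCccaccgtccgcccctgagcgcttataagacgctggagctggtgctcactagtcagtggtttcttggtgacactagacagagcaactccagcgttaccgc
Ankrd37, chr8:45999801-46000100, minus strand: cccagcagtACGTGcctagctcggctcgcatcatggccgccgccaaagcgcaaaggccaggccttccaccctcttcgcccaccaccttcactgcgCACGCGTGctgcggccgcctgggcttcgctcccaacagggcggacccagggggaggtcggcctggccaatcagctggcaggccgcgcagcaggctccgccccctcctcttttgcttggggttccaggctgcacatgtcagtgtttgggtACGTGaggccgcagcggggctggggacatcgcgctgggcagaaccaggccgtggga
The core occurred 2 times in the Slc16a3 window, 1 time in that of Car9, 4 times in that of P4ha2, 2 times in that of Adm and 4 times in that of Ankrd37. All 9 genes of the HIF group with a window held the core. Its presence therefore cannot separate genes that differed by fibroblast genotype from those that did not pass that test. A match is a stretch of letters and was not tested for binding.

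In 168FARN cells, WT fibroblasts went with higher expression of most of the 35 genes. Against cells grown alone, 28 of 35 passed the test as higher and 1, the lactate carrier Slc16a1, as lower (edgeR quasi-likelihood test, Benjamini-Hochberg adjusted p under 0.05 over 13540 genes; ± gives the standard error of a log2 fold change throughout). Across all genes, 33.4% passed as higher and 30.7% as lower. The changes were mostly small: the median log2 fold change of the 35 was 0.42, against 0.0061 over all genes, and 7 of the 28 reached a log2 fold change of 1. The share of all genes that reached this size was not counted. With sgPrrx1 fibroblasts, 20 passed as higher than alone and 5 as lower, where 25.7% and 24.1% of all genes did, and the median of the 35 was 0.15. Between the cocultures, 22 were lower and 3 higher with sgPrrx1 than with WT fibroblasts, where 33.1% and 26.9% of all genes were, and the median was -0.26, against -0.028 over all genes. Smaller counts depended on single libraries. The 1 lower with WT fibroblasts became 2, with Ldhb, without WT replicate 1. The 5 lower with sgPrrx1 fibroblasts than alone were 2 without sgPrrx1 replicate 1 and 3 without alone replicate 1 or sgPrrx1 replicate 3. The 3 higher with sgPrrx1 than with WT fibroblasts, Ldha, Egln3 and Bnip3, were 1 without sgPrrx1 replicate 2. The 3 comparisons share libraries and are not independent of each other. Nothing in the labels says that the 3 libraries of a group came from separate cultures, so the p-values measure only the spread between these libraries.

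Of the carriers, Slc2a1 and Slc16a3 rose with WT fibroblasts. Slc2a1 (GLUT1), the widespread basal glucose transporter, was measured at 298, 289.9 and 293 CPM alone, 389, 384 and 386 CPM with WT fibroblasts and 309, 314 and 315 CPM with sgPrrx1 fibroblasts. The WT libraries lay above all others, and those with sgPrrx1 fibroblasts lay a little above the cells alone. The log2 fold change was 0.40 ± 0.022 (adjusted p = 5.99e-08) with WT and 0.092 ± 0.022 (adjusted p = 0.00554) with sgPrrx1 fibroblasts, and -0.30 ± 0.022 (adjusted p = 6.96e-07) between them. Slc16a3 (MCT4), the carrier known for exporting lactate from glycolytic cells, was measured at 1.13, 1.25 and 1.46 CPM alone, 15.5, 15.97 and 15.4 CPM with WT fibroblasts and 4.797, 4.21 and 4.77 CPM with sgPrrx1 fibroblasts. The 3 groups did not overlap, and the sgPrrx1 libraries lay between the other groups. Its log2 fold change was 3.61 ± 0.098 (adjusted p = 2.27e-10) with WT fibroblasts, 1.84 ± 0.10 (adjusted p = 1.19e-07) with sgPrrx1 fibroblasts and -1.77 ± 0.083 (adjusted p = 3.29e-08) between the cocultures. Slc16a1 (MCT1), which moves lactate in either direction, went the other way. It was measured at 334, 338 and 336 CPM alone, 267, 265 and 258 CPM with WT fibroblasts and 261, 257 and 269 CPM with sgPrrx1 fibroblasts, both cocultures below the cells alone and overlapping each other, with log2 fold changes of -0.35 ± 0.026 (adjusted p = 4.98e-07) with WT and -0.36 ± 0.026 (adjusted p = 8.31e-07) with sgPrrx1 fibroblasts. The difference between the cocultures was -0.0065 ± 0.026. Slc2a3 (GLUT3), a high-affinity glucose transporter, stayed between 3.35 and 4.66 CPM over the 9 libraries and passed no test.

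**Figure D1:**
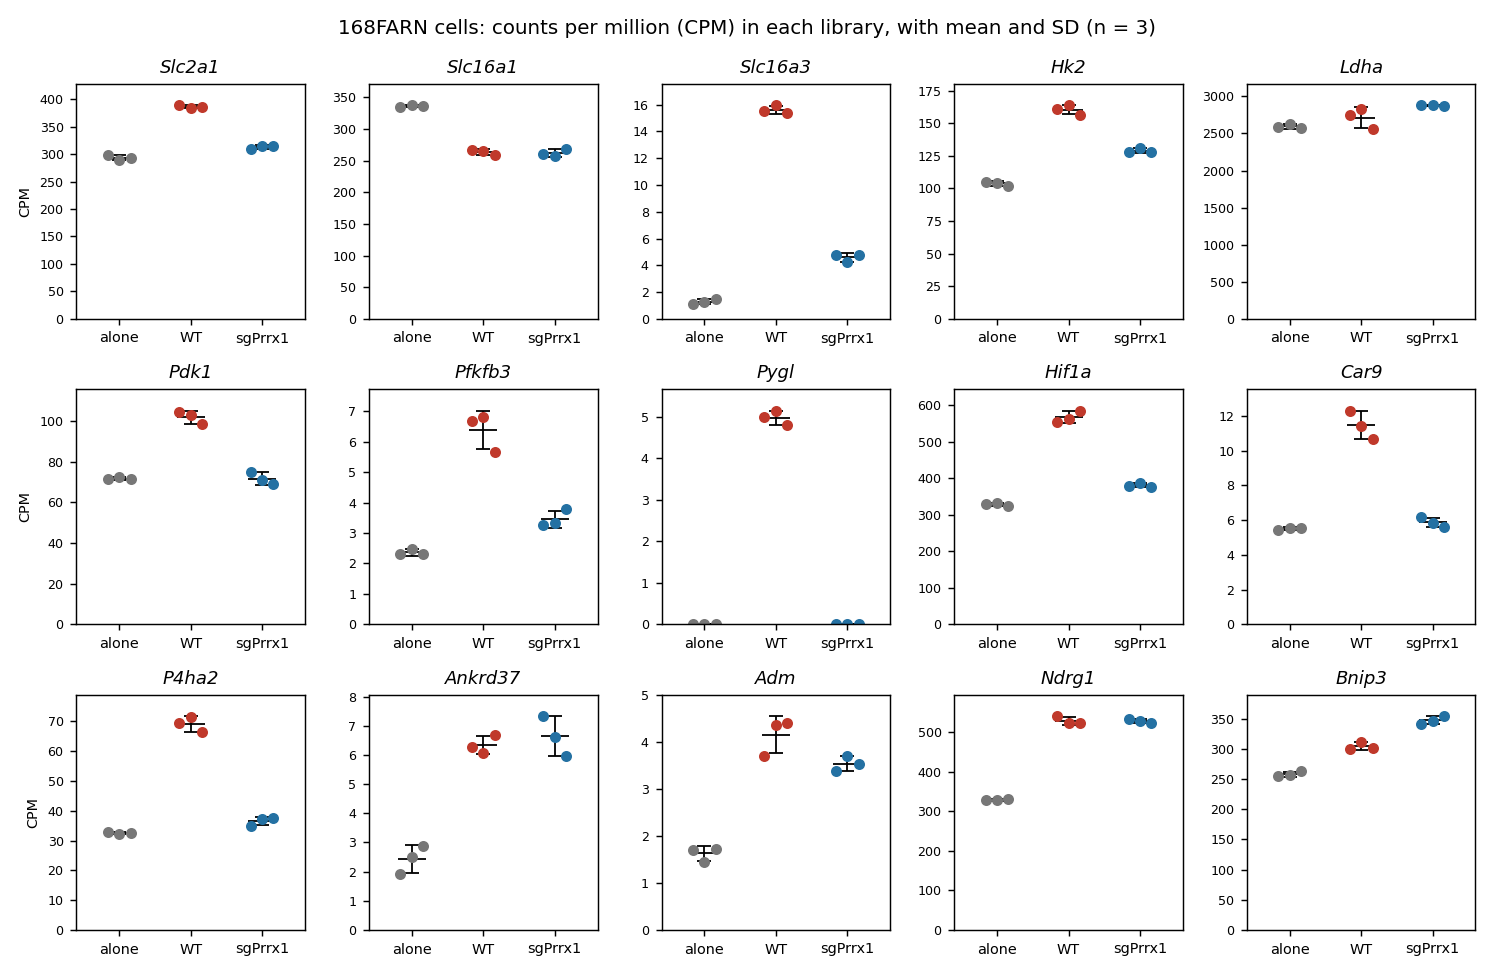
Level of 15 of the genes in each 168FARN library (y axis, CPM, from 0) for cells alone, with WT and with sgPrrx1 fibroblasts; points are libraries, and the line and bar give mean and SD over 3 libraries. Pygl was at 0 in 6 libraries and between 4.81 and 5.15 CPM with WT fibroblasts, Car9, P4ha2 and Pdk1 were higher with WT fibroblasts than in the other groups, and Ankrd37, Adm and Ndrg1 were higher in both cocultures than alone.

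Most glycolytic enzymes rose with WT fibroblasts, and by little: 14 of the 17 passed as higher, the median log2 fold change was 0.29, and those 14 ranged from 0.13 (Pgam1) to 0.65 (Eno2). Ldha, Ldhb and Aldoc did not pass in edgeR, while DESeq2 and limma voom called Ldha higher. With sgPrrx1 fibroblasts 9 were higher and 3 lower than alone with a median of 0.13, and 12 were lower and 1, Ldha, higher than with WT fibroblasts. Of all genes, 33.4% were higher with WT fibroblasts than alone, 25.7% were higher and 24.1% lower with sgPrrx1 fibroblasts than alone, and 33.1% were lower and 26.9% higher with sgPrrx1 than with WT fibroblasts. Hk2, the inducible hexokinase that commits glucose to the cell, was measured at 105, 104 and 102 CPM alone, 161, 164 and 157 CPM with WT fibroblasts and 128, 131 and 128 CPM with sgPrrx1 fibroblasts. The groups did not overlap, and the log2 fold changes were 0.63 ± 0.030 (adjusted p = 1.73e-08) with WT, 0.31 ± 0.030 (adjusted p = 7.35e-06) with sgPrrx1 fibroblasts and -0.31 ± 0.030 (adjusted p = 4.72e-06) between them. Hk1, the constitutive hexokinase, was 139, 146 and 136 CPM alone and 169, 171 and 223 CPM with WT fibroblasts, the third of which stood apart from its group (0.42 ± 0.091, adjusted p = 0.00178). Further down the chain the 3 phosphofructokinase genes, which encode the committed step, all rose with WT fibroblasts, by 0.58 (Pfkl), 0.17 (Pfkm) and 0.39 (Pfkp) on the log2 scale, and were all lower with sgPrrx1 than with WT fibroblasts, at -0.42, -0.26 and -0.38. The isomerases Gpi1 (0.29) and Tpi1 (0.44) and the aldolase Aldoa (0.21) rose as well, and were lower with sgPrrx1 than with WT fibroblasts (-0.35, -0.32 and -0.24). Of the later steps, Gapdh, the oxidising step, had log2 fold changes of 0.44 with WT, 0.29 with sgPrrx1 fibroblasts and -0.15 between them. Pgk1 and Pgam1, the kinase and mutase that follow, rose with either fibroblast, by 0.22 and 0.13 with WT and 0.20 and 0.18 with sgPrrx1, and differed by -0.013 ± 0.034 and 0.052 ± 0.024 between the cocultures, neither past the test. Pkm, pyruvate kinase, rose by 0.23 with WT and 0.16 with sgPrrx1 fibroblasts on the log2 scale, and was lower with sgPrrx1 than with WT fibroblasts (-0.067), a call that held in 9 of 17 alternatives.

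Eno2, the neuronal enolase, was measured at 22.3, 20.4 and 22.01 CPM alone, 34.3, 32.6 and 34.5 CPM with WT fibroblasts and 17.98, 19.98 and 19.4 CPM with sgPrrx1 fibroblasts, highest with WT fibroblasts and lowest with sgPrrx1 fibroblasts, with log2 fold changes of 0.65 ± 0.050 (adjusted p = 6.63e-07) for WT, -0.17 ± 0.051 (adjusted p = 0.016) for sgPrrx1 and -0.82 ± 0.050 (adjusted p = 1.78e-07) between them. Eno1, the abundant enolase, rose by 0.37 ± 0.017 with WT and 0.13 ± 0.017 with sgPrrx1 fibroblasts. Ldha, which makes lactate from pyruvate, was measured at 2587, 2633 and 2569 CPM alone, 2749, 2832 and 2556 CPM with WT fibroblasts and 2880, 2882 and 2868 CPM with sgPrrx1 fibroblasts. The WT libraries overlapped the cells alone (0.063 ± 0.029, adjusted p = 0.079) and the sgPrrx1 libraries lay above both groups (0.15 ± 0.029, adjusted p = 0.00151 against alone; 0.085 ± 0.029, adjusted p = 0.0258 against WT). Ldhb, the subunit that favours making pyruvate from lactate, was at -0.091 ± 0.043 (adjusted p = 0.0844) with WT and -0.14 ± 0.043 (adjusted p = 0.0202) with sgPrrx1 fibroblasts. Aldoc, the brain aldolase, reached at most 0.626 CPM in a 168FARN library and passed no test. Gapdh, Eno1, Pgk1, Aldoa, Ldha, Ldhb and Pgam1 have near-identical copies elsewhere in the mouse genome, so that counting could have split or dropped their reads, and their values are uncertain to that extent.

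Of the regulators, 3 of 4 were higher with WT fibroblasts than alone, where 33.4% of all genes were. The same number were lower with sgPrrx1 than with WT fibroblasts, where 33.1% were. Pygl, the liver-type glycogen phosphorylase that frees glucose units from glycogen, had 0 counts in each of the 3 libraries alone and in each of the 3 with sgPrrx1 fibroblasts, and 4.99, 5.15 and 4.81 CPM with WT fibroblasts. Set against the floor of 3 counts per library, it was at least 89.4-fold higher with WT fibroblasts than alone (adjusted p = 5.81e-07) and at least 92.4-fold lower with sgPrrx1 than with WT fibroblasts (adjusted p = 8.21e-07). Between sgPrrx1 and alone no fold can be given. The fibroblast marker Postn, a matrix protein, lay at 0, 0 and 0 CPM alone, 22.1, 23.1 and 21.3 CPM with WT and 0, 0.0669 and 0 CPM with sgPrrx1 fibroblasts. Postn was chosen after its values were seen, from the 16 markers whose sums are given above. Unlike Postn, that sum was higher with sgPrrx1 fibroblasts (286 to 295 CPM) than alone (170.5 to 175 CPM). Whether fibroblast RNA had a part in the Pygl counts was not tested. Pfkfb3, the enzyme that makes the allosteric activator of phosphofructokinase, was measured at 2.301, 2.48 and 2.31 CPM alone, 6.69, 6.82 and 5.66 CPM with WT fibroblasts and 3.25, 3.33 and 3.77 CPM with sgPrrx1 fibroblasts. No group overlapped another, and the log2 fold changes were 1.44 ± 0.11 (adjusted p = 7.81e-07) with WT, 0.55 ± 0.12 (adjusted p = 0.00251) with sgPrrx1 fibroblasts and -0.89 ± 0.11 (adjusted p = 3.19e-05) between them. Pdk1, the mitochondrial kinase that inhibits pyruvate dehydrogenase, was measured at 71.2, 72.3 and 71.3 CPM alone, 104, 103 and 98.3 CPM with WT fibroblasts and 75.1, 70.8 and 69.2 CPM with sgPrrx1 fibroblasts. It was raised with WT fibroblasts (0.51 ± 0.036, adjusted p = 3.41e-07), and the sgPrrx1 libraries overlapped the cells alone (difference 0.00053 ± 0.036) and lay below those with WT fibroblasts (-0.51 ± 0.036, adjusted p = 5.09e-07). Pfkfb4, a related enzyme, stayed within 8.26 to 10.6 CPM and passed no test.

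Hif1a and most of the HIF targets rose with WT fibroblasts. All but Egln3, 9 of 10, passed as higher, where 33.4% of all genes did, with a median log2 fold change of 0.79 over the 10, and in all 10 the WT libraries lay above those of cells alone, as they did for 35.3% of all genes tested. With sgPrrx1 fibroblasts 8 were higher than alone and 1 lower (median 0.44), and between the cocultures 5 were lower and 2 higher with sgPrrx1. Of all genes, 25.7% were higher and 24.1% lower with sgPrrx1 fibroblasts than alone. Between the cocultures, 33.1% were lower and 26.9% higher with sgPrrx1 than with WT fibroblasts. Hif1a itself, whose product is controlled mainly as a protein, was measured at 329.8, 331 and 323 CPM alone, 554, 562 and 586 CPM with WT fibroblasts and 379.8, 387 and 377 CPM with sgPrrx1 fibroblasts. The 3 groups did not overlap, with log2 fold changes of 0.79 ± 0.026 (adjusted p = 8.73e-10) for WT, 0.22 ± 0.026 (adjusted p = 4.02e-05) for sgPrrx1 and -0.57 ± 0.026 (adjusted p = 2.2e-08) between them. Egln1 (PHD2), the prolyl hydroxylase that marks HIF in normal oxygen and is itself a target, was measured at 64.4, 66.5 and 65.3 CPM alone, 115, 113 and 108 CPM with WT fibroblasts and 89.9, 89.9 and 88.5 CPM with sgPrrx1 fibroblasts. It stood in the same order, WT above sgPrrx1 above alone, at 0.78 ± 0.030 (adjusted p = 3.01e-09), 0.45 ± 0.030 (adjusted p = 3.79e-07) and -0.33 ± 0.029 (adjusted p = 3.16e-06). The inducible hydroxylase Egln3 (PHD3) was nearly absent in this line, with 7 to 60 counts per library, at 0.267, 0.327 and 0.144 CPM alone, 0.440, 0.365 and 0.507 CPM with WT fibroblasts and 0.813, 1.003 and 0.677 CPM with sgPrrx1 fibroblasts. It was highest with sgPrrx1 fibroblasts (1.72 ± 0.33, adjusted p = 0.00143 against alone; 0.93 ± 0.31, adjusted p = 0.0214 against WT), and the difference of WT from alone was 0.79 ± 0.35 (adjusted p = 0.0717).

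Car9, P4ha2 and P4ha1 were higher with WT fibroblasts than in either other group. Car9, the membrane carbonic anhydrase that handles acid outside the cell, was measured at 5.404, 5.55 and 5.56 CPM alone, 12.3, 11.4 and 10.7 CPM with WT fibroblasts and 6.15, 5.85 and 5.58 CPM with sgPrrx1 fibroblasts. It changed by 1.06 ± 0.075 (adjusted p = 3.55e-07) with WT fibroblasts, by 0.089 ± 0.078 (adjusted p = 0.369) with sgPrrx1 fibroblasts and by -0.97 ± 0.074 (adjusted p = 9.76e-07) between them. P4ha2, a catalytic subunit of collagen prolyl 4-hydroxylase, was measured at 32.9, 32.04 and 32.6 CPM alone, 69.5, 71.6 and 66.3 CPM with WT fibroblasts and 34.99, 37.2 and 37.5 CPM with sgPrrx1 fibroblasts. The WT libraries were far above the others, with 1.09 ± 0.036 (adjusted p = 1.1e-09) for WT, 0.17 ± 0.037 (adjusted p = 0.00286) for sgPrrx1 and -0.92 ± 0.036 (adjusted p = 8.89e-09) between them. P4ha1, the alternative subunit, was measured at 219.7, 208 and 225 CPM alone, 291, 288 and 286 CPM with WT fibroblasts and 187, 179.6 and 194 CPM with sgPrrx1 fibroblasts, so that it was lowest with sgPrrx1 fibroblasts (-0.22 ± 0.037, adjusted p = 0.0005 against alone; -0.63 ± 0.037, adjusted p = 1.43e-07 against WT) and highest with WT (0.41 ± 0.037, adjusted p = 2.59e-06 against alone).

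Other targets rose in both cocultures. Ankrd37, a short ankyrin-repeat protein, was measured at 1.91, 2.49 and 2.86 CPM alone, 6.27, 6.09 and 6.697 CPM with WT fibroblasts and 7.34, 6.64 and 5.96 CPM with sgPrrx1 fibroblasts, with 1.39 ± 0.14 (adjusted p = 5.06e-06) for WT and 1.45 ± 0.14 (adjusted p = 7.11e-06) for sgPrrx1 against alone and 0.065 ± 0.12 (adjusted p = 0.68) between them. The cocultures overlapped, and both lay above the cells alone. Adm, which encodes the vessel-dilating peptide adrenomedullin, was measured at 1.71, 1.45 and 1.73 CPM alone, 3.69, 4.37 and 4.403 CPM with WT fibroblasts and 3.38, 3.69 and 3.54 CPM with sgPrrx1 fibroblasts. Its changes were 1.35 ± 0.13 (adjusted p = 3.26e-06) and 1.13 ± 0.13 (adjusted p = 3.12e-05) against alone and -0.23 ± 0.12 (adjusted p = 0.115) between the cocultures. Ndrg1, a stress-induced cytoplasmic protein, was measured at 328, 328 and 332 CPM alone, 540.4, 522 and 524 CPM with WT fibroblasts and 532, 529 and 523 CPM with sgPrrx1 fibroblasts. Its changes against alone were 0.68 ± 0.021 (adjusted p = 6.42e-10) with WT and 0.68 ± 0.021 (adjusted p = 9.77e-10) with sgPrrx1 fibroblasts, and the difference between the cocultures was -0.0020 ± 0.021. A p-value that misses the threshold does not show that the cocultures were alike. Bnip3, a mitophagy receptor, was highest with sgPrrx1 fibroblasts, at 255, 257 and 263 CPM alone, 300.2, 312 and 301 CPM with WT fibroblasts and 342, 346 and 355 CPM with sgPrrx1 fibroblasts. All 3 groups were separate (0.24 ± 0.026, adjusted p = 1.33e-05; 0.43 ± 0.026, adjusted p = 2.23e-07; 0.19 ± 0.026, adjusted p = 8.76e-05, in the order WT against alone, sgPrrx1 against alone and sgPrrx1 against WT).

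**Figure D2:**
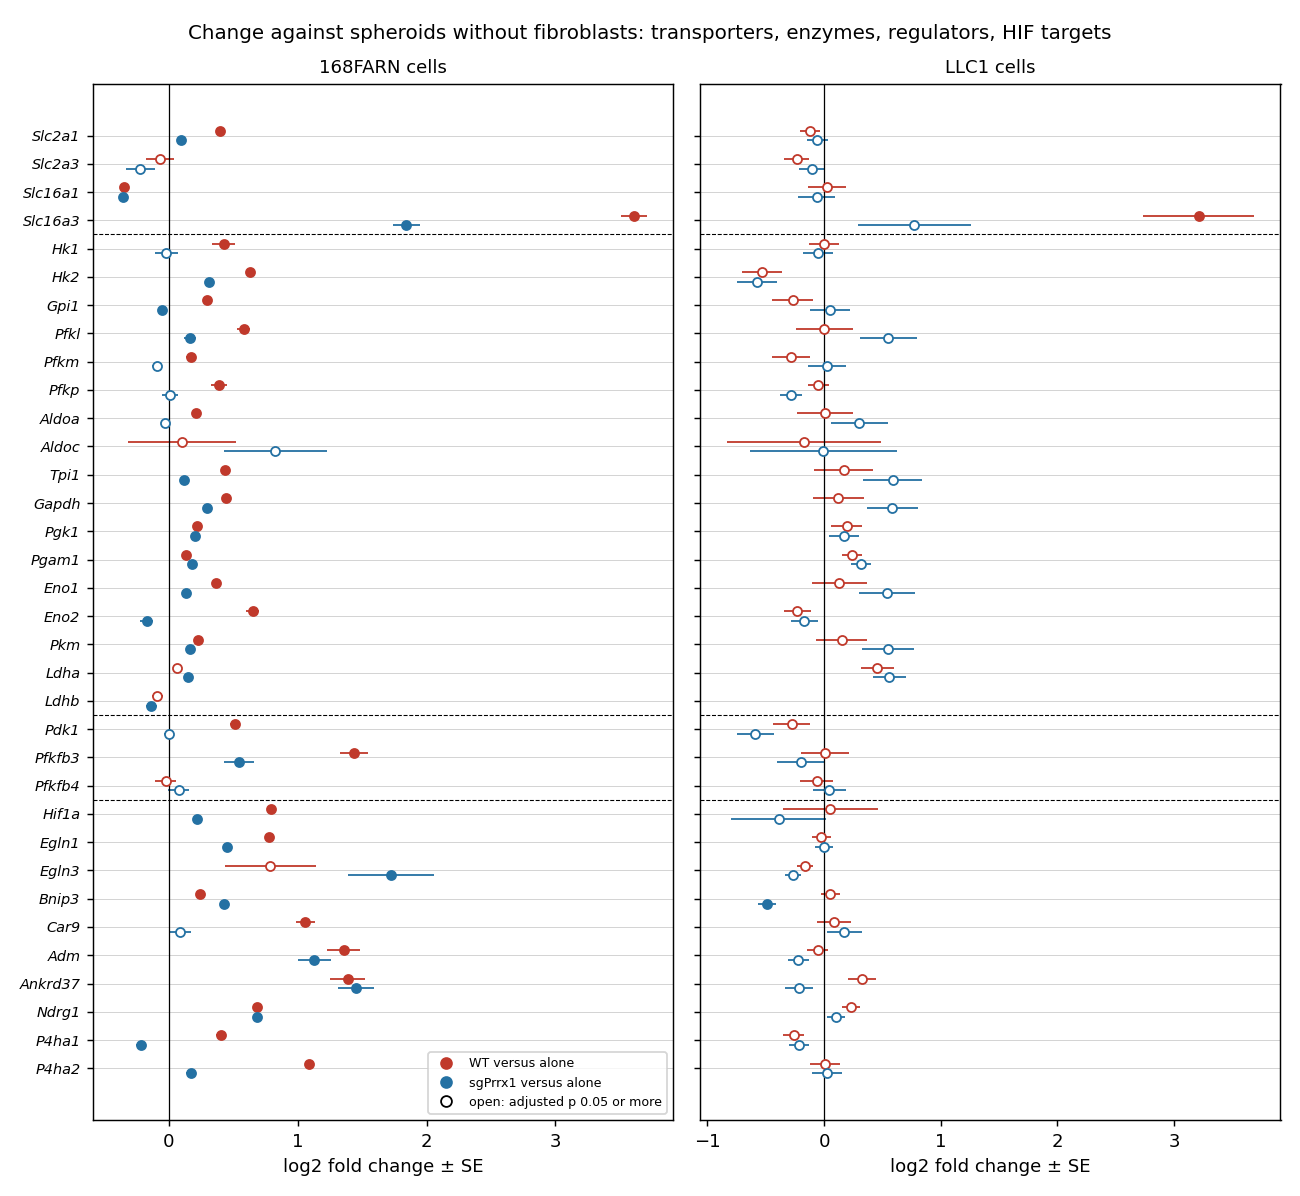
Log2 fold change (x axis, ± SE) against cells alone for 34 of the genes, with WT fibroblasts and with sgPrrx1 fibroblasts, in 168FARN (left) and LLC1 (right); filled points have an adjusted p under 0.05, dashed lines part carriers, enzymes, regulators and HIF targets, and Pygl (0 counts in 2 groups of 168FARN) and the LLC1 value of Ldhb are left out. In 168FARN most WT points lie right of 0, with Slc16a3 farthest at 3.61; in LLC1 the filled points are Slc16a3 with WT and Bnip3 with sgPrrx1 fibroblasts.

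Per transcript length the chain had a steep order of levels. In 168FARN alone, Ldha (1470 ± 18.5 CPM per kb of the longest transcript, SD, n = 3) and Pkm (1280 ± 44.4) led, Gapdh (1073 ± 25.4) and Aldoa (1057 ± 14.2) followed without separation from each other, and Tpi1 (933 ± 13.8), Eno1 (729 ± 9.37), Pgk1 (662 ± 16.8), Pgam1 (542 ± 8.94) and Gpi1 (356 ± 3.25) came next. The phosphofructokinases and hexokinases measured lower, Pfkp at 35.4 ± 0.718, Pfkl at 34.2 ± 1.62, Hk1 at 32.7 ± 1.24 and Hk2 at 18.8 ± 0.289 CPM per kb. In LLC1 alone, Pkm led at 1376 ± 82.6, and Eno1 (898 ± 56.5) and Gapdh (886 ± 39.01) were within their spread of each other, as were Aldoa (729 ± 47.1) and Ldha (709.5 ± 48.3). The 2 tables were scaled separately, so levels set across them are only described. Wide gaps between lines grown alone were seen in HIF targets and regulators: Egln3 averaged 0.246 CPM in 168FARN and 219 CPM in LLC1, Adm 1.63 and 53.9 CPM, and Pfkfb3 2.36 and 36.1 CPM. Ldhb ran the other way, with 39.5 CPM in 168FARN and 0 counts in all 3 LLC1 libraries alone.

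The mean mixture of isoenzymes within families is described here without a test. An exact two-sided permutation test of 3 libraries against 3 could not go below a p of 0.1. In 168FARN, Slc16a3 made up 0.387% ± 0.0499 (SD, n = 3) of Slc16a1 and Slc16a3 alone, 5.71% ± 0.0938 with WT and 1.76% ± 0.101 with sgPrrx1 fibroblasts. MCT1 stayed the main carrier by transcript level in every group. The share of P4ha2 in P4ha1 and P4ha2 was 21.1% ± 0.505 alone, 29.97% ± 0.721 with WT and 25.9% ± 0.997 with sgPrrx1 fibroblasts. The share of Hk2 among the hexokinases was 36.5% ± 0.734 alone, 40.1% ± 4.21 with WT, where replicate 3, high in Hk1, was lowest, and 42.04% ± 0.937 with sgPrrx1 fibroblasts. In LLC1 that share went from 48.3% ± 0.400 alone to 39.7% ± 4.58 with WT fibroblasts. Pfkl took 35.1% ± 0.694 of the phosphofructokinases in 168FARN alone and 39.7% ± 1.42 with WT fibroblasts, without overlap. With sgPrrx1 fibroblasts it took 38.3% ± 1.16, above every library alone and overlapping WT. Ldha made up at least 97.9% of Ldha and Ldhb, Aldoa at least 99.978% of Aldoa and Aldoc and Slc2a1 at least 98.00% of Slc2a1 and Slc2a3 in any library of either line.

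**Figure D3:**
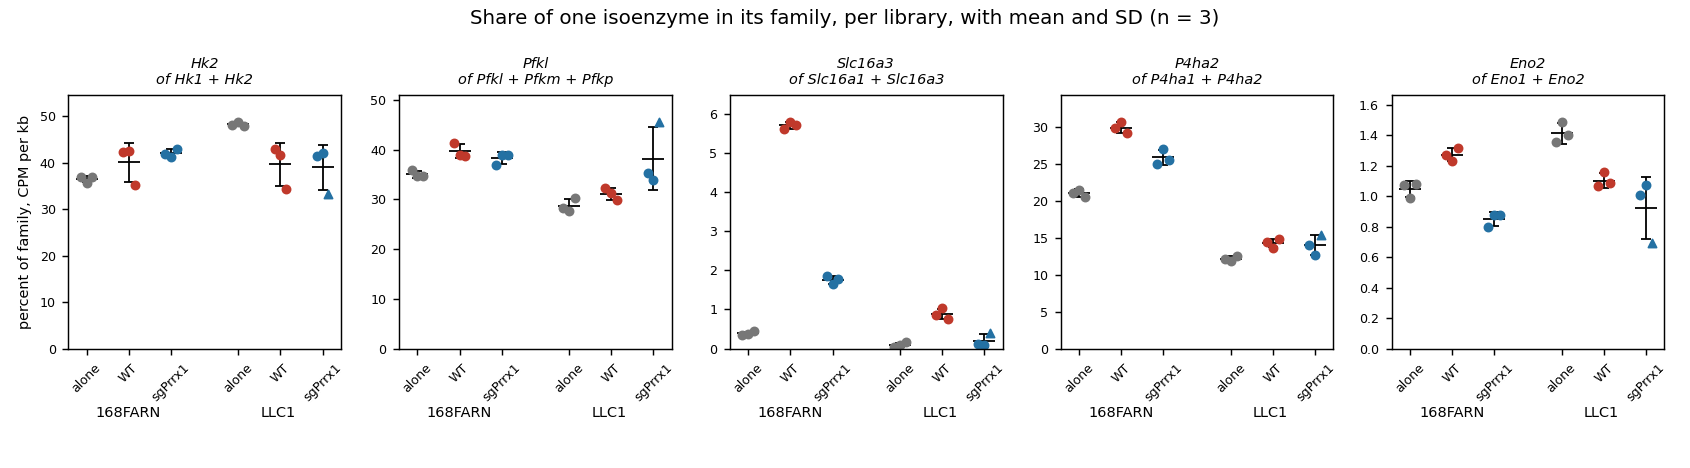
Share of one isoenzyme (y axis, percent of the family's summed CPM per kb, from 0) in each library of both lines, with mean and SD over 3 libraries; the triangle is LLC1 with sgPrrx1 fibroblasts, replicate 3. Slc16a3 and P4ha2 had their highest share in 168FARN with WT fibroblasts, and Hk2 had its highest share, 48.3%, in LLC1 alone.

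In LLC1 cells few of the 33 genes that could be tested passed, and the count depended on 1 library. Ldhb and Pygl were too low to test. With all 9 libraries 1 gene, Slc16a3, was higher with WT fibroblasts than alone, where 4.25% of 12873 genes were and 4.58% were lower. One gene, Bnip3, was lower with sgPrrx1 fibroblasts than alone, where 2.31% were and 2.01% were higher. Between the cocultures edgeR called 0 of 33, where it called 0.0544% of all genes; 4 had an unadjusted p under 0.05, as had 1545 of the 12873 genes tested, and DESeq2 called 3, beside 3.89% of all genes. Without sgPrrx1 replicate 3 the counts were 15 of 33 for WT against alone (8 higher, 7 lower; 44.2% of all genes in either direction), 13 for sgPrrx1 against alone (4 higher, 9 lower; 26.7%) and 3 for sgPrrx1 against WT (all lower; 5.69%). For WT against alone the library enters no mean, only the filter, the scaling and the estimate of spread, and the 33 fold changes there moved by at most 0.015 on the log2 scale. The median log2 fold change of the 33 was 0.0071 for WT against alone and 0.00059 for sgPrrx1 against alone. Replicate 3 also had a direction of its own. Relative to the mean of the other sgPrrx1 libraries it held 0.269 times their Hif1a, 0.557 times their Pfkfb3 and 0.625 times their Hk2, the lowest ratios, and 1.99 times their Tpi1, 1.94 times their Aldoa and 1.94 times their Pfkl, the highest. The longest transcripts of Hif1a, Pfkfb3 and Hk2 have 4724, 5072 and 5513 bases, those of Tpi1, Aldoa and Pfkl 1607, 1549 and 3730. Length did not order all members: Bnip3 (1756 bases) and Adm (1387 bases) had ratios of 0.972 and 0.984, and P4ha1 (4043 bases) one of 1.11. Across 11177 genes with a transcript the library's deviation had a Spearman rho of -0.65 with length and 0.53 with GC content, a description across genes, which are not independent replicates. The part of this in the results was not tested.

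Slc16a3 passed for WT against alone in LLC1 whether or not that library was used. It was measured at 0.112, 0.196 and 0.334 CPM alone, 1.99, 2.24 and 1.75 CPM with WT fibroblasts and 0.264, 0.235 and 0.633 CPM with sgPrrx1 fibroblasts. Each WT library was above every other library, and the log2 fold change of WT against alone was 3.21 ± 0.48 (adjusted p = 0.00758), or 3.22 ± 0.34 (adjusted p = 0.000215) without sgPrrx1 replicate 3. Against WT, the sgPrrx1 cocultures were at -2.44 ± 0.45 (adjusted p = 0.122) with all libraries and at -2.99 ± 0.38 (adjusted p = 0.0115) without replicate 3. The fibroblast marker Col1a2 stood at 0, 0.0246 and 0.0642 CPM alone, 9.27, 8.55 and 8.22 CPM with WT and 0.311, 0.223 and 0.257 CPM with sgPrrx1 fibroblasts, and was chosen after its values were seen. The sum of the 16 fibroblast markers had another order, at 1675 to 1766 CPM alone, 1215 to 1245 CPM with WT and 1508 to 1618 CPM with sgPrrx1 fibroblasts. The part of fibroblast RNA in the Slc16a3 counts was not tested. Slc16a1, Slc2a1 and Slc2a3 passed no edgeR test with either set of LLC1 libraries. Limma voom with sample weights called Slc2a1 and Slc2a3 lower with WT fibroblasts than alone, and Slc2a1 lower with sgPrrx1 fibroblasts than alone. Slc2a1 was measured at 214, 211 and 225 CPM alone, 201, 196 and 201 CPM with WT fibroblasts and 199.7, 197 and 229 CPM with sgPrrx1 fibroblasts.

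Of the 16 enzymes tested in LLC1, edgeR called 0 against alone with all 9 libraries. Without sgPrrx1 replicate 3 it called 9 with WT and 9 with sgPrrx1 fibroblasts, some higher and some lower. Of all genes, 44.2% and 26.7% were called there. Hk2 was measured at 217, 215 and 198 CPM alone, 148, 146 and 142 CPM with WT fibroblasts and 159, 163 and 101 CPM with sgPrrx1 fibroblasts, lower in every coculture library than in any library alone. The log2 fold change with WT fibroblasts was -0.53 ± 0.17 (adjusted p = 0.0951) with all libraries and -0.52 ± 0.050 (adjusted p = 0.000152) without sgPrrx1 replicate 3. With sgPrrx1 fibroblasts it was -0.57 ± 0.17 (adjusted p = 0.099), and -0.37 ± 0.057 (adjusted p = 0.00234) without that library. Ldha was measured at 1239, 1175 and 1344 CPM alone, 1779, 1648 and 1738 CPM with WT fibroblasts and 1635, 1619 and 2286 CPM with sgPrrx1 fibroblasts, higher in every coculture library than in any library alone. Its changes were 0.46 ± 0.14 (adjusted p = 0.088) with WT and 0.56 ± 0.14 (adjusted p = 0.0671) with sgPrrx1 fibroblasts, and 0.47 ± 0.058 (adjusted p = 0.000465) and 0.38 ± 0.065 (adjusted p = 0.00384) without sgPrrx1 replicate 3. Without that library, Pgk1 (0.20), Pgam1 (0.25), Pkm (0.16) and Gapdh (0.13) also passed as higher with WT fibroblasts, and Gpi1 (-0.26), Pfkm (-0.27) and Eno2 (-0.22) as lower. With sgPrrx1 fibroblasts Gapdh, Pgam1 and Pkm passed as higher (0.24, 0.27 and 0.21) and Gpi1, Pfkm, Pfkp and Eno2 as lower (-0.20, -0.20, -0.23 and -0.29). With all 9 libraries the sgPrrx1 values of Gpi1 and Pfkm had the other sign, 0.050 and 0.028, with no edgeR call. Between the cocultures edgeR called 0 of the 16 enzymes tested with either set of libraries; 1 had an unadjusted p under 0.05 with all 9, and DESeq2 called 0 (3.89% of all genes). Limma voom with sample weights called 3, Hk2 as higher and Pfkp and Pgk1 as lower with sgPrrx1, where it called 36.4% of all genes.

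**Figure D4:**
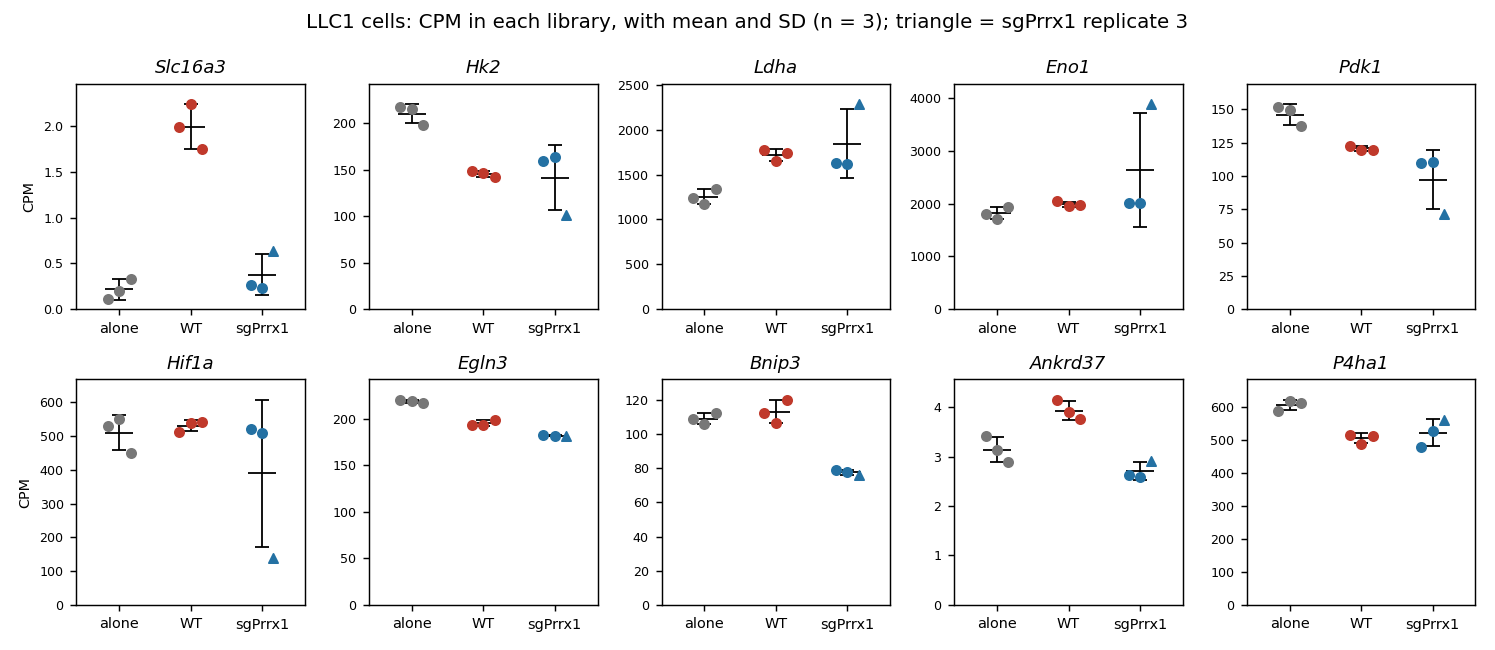
Level of 10 of the genes in each LLC1 library (y axis, CPM, from 0) for cells alone, with WT and with sgPrrx1 fibroblasts, with mean and SD over 3 libraries; the triangle is sgPrrx1 replicate 3. That library lies far from its group for Hif1a (521, 510.3 and 139 CPM in replicates 1 to 3) and Eno1, and within it for Egln3 and Bnip3.

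Among regulators and HIF targets of LLC1, Pdk1 was measured at 152, 149 and 137 CPM alone, 123, 119.8 and 119.6 CPM with WT fibroblasts and 109.8, 110.2 and 71.6 CPM with sgPrrx1 fibroblasts. Its coculture libraries all lay below the libraries alone, with log2 fold changes of -0.28 ± 0.16 (adjusted p = 0.338) and -0.59 ± 0.16 (adjusted p = 0.0776) with all libraries and at -0.26 ± 0.048 (adjusted p = 0.0027) and -0.40 ± 0.054 (adjusted p = 0.00147) without sgPrrx1 replicate 3. Pfkfb3 and Pfkfb4 passed with neither set of libraries, and Pygl had at most 13 counts in a library. Bnip3 was measured at 109, 106 and 112 CPM alone, 113, 107 and 120.0 CPM with WT fibroblasts and 78.9, 77.8 and 76.1 CPM with sgPrrx1 fibroblasts. All 3 sgPrrx1 libraries, replicate 3 included, lay below every other library, with a log2 fold change of -0.49 ± 0.081 (adjusted p = 0.0203) against alone. The call was lost in 8 of 17 alternatives, with adjusted p from 1.37e-08 to 0.127, and the value without sgPrrx1 replicate 3 was -0.47 ± 0.061 (adjusted p = 0.00128). Against WT fibroblasts it was -0.54 ± 0.081 (adjusted p = 0.101), and -0.53 ± 0.061 (adjusted p = 0.00724) without that library. Ankrd37 stood highest with WT and lowest with sgPrrx1 fibroblasts, at 3.41, 3.13 and 2.89 CPM alone, 4.15, 3.89 and 3.75 CPM with WT fibroblasts and 2.62, 2.596 and 2.91 CPM with sgPrrx1 fibroblasts, and passed without replicate 3 against alone for WT (0.34 ± 0.10, adjusted p = 0.0263) and between the cocultures (-0.60 ± 0.12, adjusted p = 0.035). Without it, Ndrg1 was higher with WT fibroblasts than alone (0.24 ± 0.048, adjusted p = 0.00421), and Egln3 and P4ha1 were lower, at -0.15 and -0.25 with WT and -0.26 and -0.26 with sgPrrx1 fibroblasts. Egln3 was abundant here, at 220.2, 219 and 217 CPM alone, 194, 193 and 199 CPM with WT fibroblasts and 183, 181 and 182 CPM with sgPrrx1 fibroblasts, with groups that did not overlap. Hif1a was measured at 530.1, 551 and 451 CPM alone, 512, 539 and 541 CPM with WT fibroblasts and 521, 510.3 and 139 CPM with sgPrrx1 fibroblasts, and its changes of 0.055 ± 0.41 with WT and -0.39 ± 0.41 with sgPrrx1 fibroblasts passed no test; the second was 0.022 without replicate 3. Egln1, Car9, Adm and P4ha2 passed no edgeR test under either set of libraries; limma voom called Adm lower with sgPrrx1 fibroblasts than alone and P4ha2 lower with sgPrrx1 than with WT fibroblasts.

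**Figure D5:**
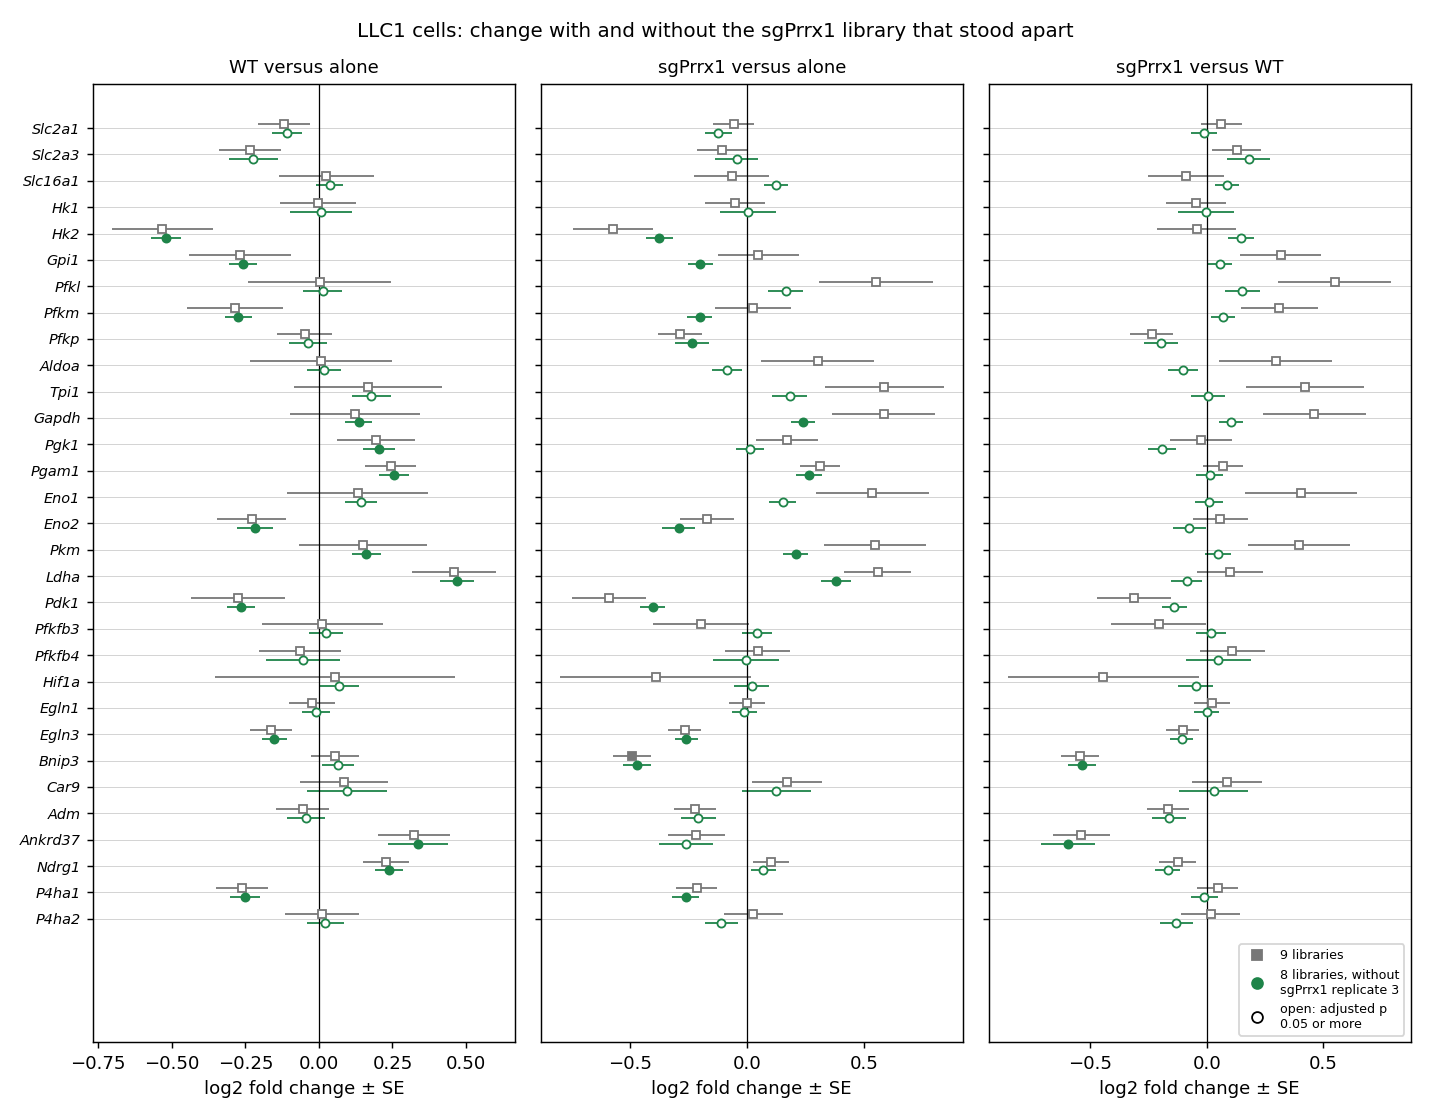
Log2 fold change (x axis, ± SE) of 31 of the genes in LLC1 for each comparison, with all 9 libraries (squares) and without sgPrrx1 replicate 3 (circles); filled symbols have an adjusted p under 0.05. Values of WT against alone hardly moved while their errors shrank, and with sgPrrx1 fibroblasts Gpi1 and Pfkm were filled below 0 without that library and open above 0 with it; Slc16a3 (3.21 with WT) and the near-absent Aldoc, Ldhb and Pygl are left out.

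The change with WT fibroblasts differed between the lines, by test, for 18 of the 35 genes. In 1 fit over all 18 libraries the interaction passed for these 18, 16 with the more positive change in 168FARN and 2 with the more positive change in LLC1, where 29.4% of all genes passed. Of the 2, Ldhb rests on 0 counts in every LLC1 library alone. Egln3, among the 16, had at most 31 counts in any 168FARN library alone or with WT fibroblasts. For sgPrrx1 against alone 8 passed, all more positive in 168FARN, where 12.1% of all genes did, and for sgPrrx1 against WT 12 passed (3 more positive and 9 more negative in 168FARN), where 19.3% did. These shares of all genes cover both directions, and their split by direction was not counted. Without LLC1 sgPrrx1 replicate 3 the counts were 27, 14 and 24, beside 52.5%, 28.0% and 44.5% of all genes. For WT against alone the differences, 168FARN minus LLC1, were 1.41 ± 0.13 (adjusted p = 1.06e-06) for Adm, 1.42 ± 0.25 (adjusted p = 0.000582) for Pfkfb3, 1.16 ± 0.19 (adjusted p = 0.000291) for Hk2 and 1.08 ± 0.12 (adjusted p = 1.05e-05) for P4ha2. Hk2 stood at 0.63 in 168FARN and -0.53 in LLC1. For Ldha the difference was -0.40 ± 0.14 (adjusted p = 0.0424), from 0.063 in 168FARN and 0.46 in LLC1. For sgPrrx1 against WT, Bnip3 differed by 0.75 ± 0.079 (adjusted p = 1.41e-05), being 0.19 in 168FARN and -0.54 in LLC1, and Car9 by -1.04 ± 0.15 (adjusted p = 0.000244), being -0.97 and 0.088. Slc16a3, which rose with WT fibroblasts in each line, had an interaction of 0.40 ± 0.44 (adjusted p = 0.567).

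Neighbouring genes of the same pathways were counted in the same way in 168FARN. Of all genes there, 33.4% were higher and 30.7% lower with WT fibroblasts than alone, and 26.9% were higher and 33.1% lower with sgPrrx1 than with WT fibroblasts. Of other hypoxia response genes, 18 of 27 were higher and 4 lower with WT fibroblasts than alone, and 3 were higher and 17 lower with sgPrrx1 than with WT fibroblasts. Of glycogen genes, 10 of 18 were higher and 4 lower with WT fibroblasts than alone, and 1 was higher and 12 lower with sgPrrx1 than with WT fibroblasts. Of other isoenzymes and side branches of glycolysis, 8 of 19 were higher and 8 lower with WT fibroblasts than alone, and 5 were higher and 8 lower with sgPrrx1 than with WT fibroblasts. Of genes that carry pyruvate into mitochondria or act on it there, 4 of 11 were higher and 5 lower with WT fibroblasts than alone, and 4 were higher and 5 lower with sgPrrx1 than with WT fibroblasts, and of the pentose phosphate pathway, 2 of 7 were higher and 3 lower with WT fibroblasts than alone, and 4 were higher and 2 lower with sgPrrx1 than with WT fibroblasts. Of other regulators of HIF, 5 of 9 were higher and 3 lower with WT fibroblasts than alone, and 3 were higher and 3 lower with sgPrrx1 than with WT fibroblasts. In the hypoxia and glycogen lists the median log2 fold change with WT fibroblasts was 0.31 and 0.29, and in the pyruvate list -0.12. Loxl2, a lysyl oxidase that crosslinks collagen, went from a mean of 0.0721 CPM alone to 18.4 CPM with WT and 1.21 CPM with sgPrrx1 fibroblasts, and the repressor Bhlhe40 from 90.6 to 223 CPM with WT (1.30 ± 0.028, adjusted p = 3.38e-11). Selenbp1 fell instead, by 2.29 with WT and 3.47 with sgPrrx1 fibroblasts on the log2 scale. Epas1, which encodes the alternative alpha subunit of HIF, Rora, a nuclear receptor, and Ppp1r3b, which targets a phosphatase to glycogen, had 0 counts in all 3 libraries alone and averaged 0.478, 1.64 and 1.31 CPM with WT fibroblasts, at least 8.57-fold, 29.3-fold and 23.5-fold higher against the floor of 3 counts per library. Pcx, pyruvate carboxylase, was lower with sgPrrx1 fibroblasts than alone in 168FARN (-1.08 ± 0.048, adjusted p = 1.61e-08) and, with WT fibroblasts in LLC1, went from 103 to 51.3 CPM (adjusted p = 0.00614). In LLC1 the hypoxia list held 6 higher and 1 lower of 28 with WT fibroblasts, where 4.25% and 4.58% of all genes were. The isoenzyme list held 0 higher and 2 lower of 15, the pyruvate list 1 and 0 of 12, and the glycogen list 0 and 2 of 16. The pentose phosphate list held 0 and 0 of 7, and the other regulators of HIF 0 and 1 of 8. Those higher in the hypoxia list included Loxl2 (3.81), Rora (3.99) and Vldlr (3.75), all at means of at most 1.246 CPM. Stc2 of the hypoxia list and Pdk4 of the pyruvate list had 0 counts alone. They averaged 0.625 and 0.279 CPM with WT fibroblasts, at least 16.6-fold and 7.43-fold higher. The carrier Slc2a6 (-1.29 ± 0.20, adjusted p = 0.00879) and the HIF partner Arnt2 (-1.36 ± 0.23, adjusted p = 0.0119) were lower.

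A few low-abundance genes of these lists also passed at a log2 fold change of at least 1 in 168FARN, all with group means below 1 CPM: with WT fibroblasts against alone Hk3 (2.29), Pgam2 (1.43), Slc2a10 (3.11) and Epm2a (1.65) were higher and Ldhc (-1.30) lower.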

How the data were processed

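Per the submitters' processing notes, which list Trimmomatic, STAR, HTSeq and mm10 without roles or versions, the authors turned 100 bp paired-end reads into whole-number read counts per gene symbol and deposited 1 table per line; the study describes trimming, alignment and counting with these tools, followed by ComBat-seq batch correction, for its fibroblast RNA, and whether the coculture counts were batch-corrected or counted by strand was not given in the sources used here. The methods name no per-gene test for the cocultures. Groups came from the labels. Date-named symbols, 27 in each table, were not restored, and 0 per-sample columns were left unused. The counts were tested per line with edgeR 4.0.16 (R 4.3.3): filterByExpr kept 13540 and 12873 genes, followed by TMM scaling, a quasi-likelihood fit over 9 libraries and Benjamini-Hochberg adjustment over all genes kept. Differences between lines were interaction terms of 1 fit over 18 libraries. Values at 0 were set against 3 counts per library, which covers counting error only. DESeq2 1.42.0, limma 3.58.1 with voom weights, other scalings and filters, fits on only the groups compared, a replicate block and leaving out each library were alternatives. Levels per length used the longest protein-coding transcript of GENCODE vM1 (Pkm under its older symbol), and promoters came from RefSeq. Named were the 10 largest called changes per comparison, Slc2a1, Hk2, Ldha, Pdk1, Pygl and Hif1a with every library, and genes of the neighbouring lists called at a log2 fold change of at least 1, of which 1 is not reported here; the other members are given by changes, ranges or counts. The members and lists were chosen with earlier results of these data known. Tables and figures used Python 3.11.15, pandas 2.3.3 and matplotlib 3.10.9.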

Additional observations from a re-analysis of the deposited data

Results flagged for a closer look

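The genes below had a change in 168FARN that differed from the change in LLC1 under the same contrast, by the interaction term of the edgeR fit over all 18 libraries (adjusted p under 0.05). Values are the log2 fold change in 168FARN minus that in LLC1. Line, fibroblast type and count table cannot be told apart.

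With WT fibroblasts against alone the differences were 0.51 for Slc2a1, 1.16 for Hk2, 0.56 for Gpi1, 0.45 for Pfkm, 0.44 for Pfkp, 0.88 for Eno2 and -0.40 for Ldha among carriers and enzymes, and 0.78 for Pdk1, 1.42 for Pfkfb3, 0.80 for Egln1, 0.94 for Egln3, 0.97 for Car9, 1.41 for Adm, 1.06 for Ankrd37, 0.45 for Ndrg1, 0.67 for P4ha1 and 1.08 for P4ha2 among regulators and HIF targets. Ldhb, at -6.49, rests on 0 counts in all 3 LLC1 libraries alone, and its size depends on the prior count of the fit.

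With sgPrrx1 fibroblasts against alone they were 0.90 for Hk2, 0.60 for Pdk1, 0.47 for Egln1, 1.997 for Egln3, 0.93 for Bnip3, 1.36 for Adm, 1.69 for Ankrd37 and 0.60 for Ndrg1. All 8 were more positive in 168FARN, and the split by direction over all genes was not counted. These differences include replicate 3 of LLC1 with sgPrrx1 fibroblasts, without which the difference was 0.40 for Pdk1 and 0.68 for Hk2, and all 8 still passed.

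With sgPrrx1 against WT fibroblasts they were -0.35 for Slc2a1, -0.64 for Gpi1, -0.94 for Pfkl, -0.55 for Pfkm, -0.86 for Eno2, -0.33 for Egln1, 1.06 for Egln3, 0.75 for Bnip3, -1.04 for Car9, 0.62 for Ankrd37, -0.65 for P4ha1 and -0.91 for P4ha2. Replicate 3 of LLC1 with sgPrrx1 fibroblasts enters these directly, and without it 24 genes passed in place of 12, where 44.5% of all genes did in place of 19.3%. Without it the differences for Gpi1, Pfkl and Pfkm were -0.38, -0.54 and -0.31, each nearer to 0 by over 1.5 times.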

How the results depend on the processing

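In 168FARN the counts of called genes (29, 25 and 25 for WT against alone, sgPrrx1 against alone and sgPrrx1 against WT) were 28 to 30, 23 to 27 and 23 to 26 under other tools, scalings and filters, and 29 to 30, 22 to 26 and 23 to 25 with a library left out. Requiring a log2 fold change of at least 1 left 7, 4 and 2, and all genes were not counted under that requirement. Without that requirement, the genes lower with sgPrrx1 fibroblasts than alone, 5 in number, were 2 to 7, and those higher with sgPrrx1 than with WT, 3 in number, were 1 to 4. Calls of Gpi1 with sgPrrx1 fibroblasts and of Pkm between the cocultures held in 9 of 17 alternatives each, and between the cocultures Ldha held in 13 of 17 and Egln3 in 13 of 16. In LLC1, DESeq2 called 7, 8 and 3 of 33 genes (17.7%, 15.1% and 3.89% of all genes), limma voom with sample weights 19, 19 and 10 (58.6%, 48.0% and 36.4%), and library totals without scaling 2 and 2 in the comparisons with alone (10.4% and 5.44%). A minimum of 10 counts in every library left 0 for WT against alone, where Slc16a3 is then not tested. Fits on only the groups compared called 13 for WT and 0 for sgPrrx1 against alone (40.7% and 0.215% of all genes), and a log2 fold change of at least 1 left 0 for the latter. With a library left out the LLC1 counts were 1 to 15, 0 to 13 and 0 to 3, the highest always without sgPrrx1 replicate 3; the Bnip3 call against alone was lost without any of the 3 libraries alone, WT replicate 1 or 2, or sgPrrx1 replicate 1 or 2. Interaction counts were 15 to 27, 7 to 14 and 10 to 24, again highest without that library.

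Some LLC1 values changed sign, and the cause was not tested. Under voom weights Hif1a was at -0.021 for WT against alone. For sgPrrx1 against alone, Gpi1 and Pfkm were at -0.032 and -0.052 with library totals and at -0.17 and -0.19 under voom weights. For sgPrrx1 against WT, voom weights gave -0.010 for Slc2a1, 0.13 for Hk2 and -0.10 for Ldha. With a library left out, Gpi1 ran from -0.20 to 0.17, Pfkm from -0.20 to 0.14 and Hif1a from -0.65 to 0.022 for sgPrrx1 against alone, and Slc2a1 from -0.012 to 0.10, Hk2 from -0.16 to 0.15 and Ldha from -0.086 to 0.19 for sgPrrx1 against WT.

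The labels share replicate numbers across groups without saying what a number marks. Deviations of same-numbered libraries correlated at -0.073 to 0.063 in 168FARN and -0.041 to 0.42 in LLC1, so pairing was not taken as given. With a replicate block the counts were 30, 24 and 26 in 168FARN, 1, 1 and 0 in LLC1, and 18, 9 and 13 for the interaction. Over all genes these fits called 8553, 6654 and 8044 of 13540 in 168FARN and 1028, 381 and 2 of 12873 in LLC1. For the interaction they called 4656, 2010 and 3177 of 14369.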

Other observations

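Hk1 stood apart in 1 WT library of each line. It was measured at 169, 171 and 223 CPM in 168FARN with WT fibroblasts and at 153, 158 and 209 CPM in LLC1 with WT fibroblasts, replicate 3 being the highest in both, while the libraries of cells alone lay between 136 and 146 CPM and between 166 and 181 CPM.

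Markers of other cell types were low but not constant. Summed endothelial markers were 3.47 to 3.91 CPM in 168FARN alone, 7.96 to 8.88 CPM with WT and 7.18 to 8.07 CPM with sgPrrx1 fibroblasts. In LLC1 they were 0.175 to 0.516, 5.62 to 6.73 and 0.308 to 0.552 CPM. Summed leukocyte markers were 47.3 to 51.3, 27.6 to 30.6 and 33.8 to 34.5 CPM in 168FARN, and 16.01 to 17.3, 36.4 to 38.3 and 36.4 to 64.8 CPM in LLC1, in the same order.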
